A study of Homo sapiens with 9 samples.

Results

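The HOX genes are the homeobox transcription factor genes that lie in 4 chromosomal clusters, and 38 of them were examined in the parental A549 cells and in the cells derived from them, named OSK-A549-Colony and OSK-A549-SN. A gene was included when the array held a non-control probe whose identifier was a RefSeq transcript of that gene, and 42 of the 50599 probes fulfilled this rule. The 38 genes belonged to 21743 genes that could be named on the array in all. Where a gene had more than 1 probe, the probe with the highest mean over the 9 arrays was used.

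The A549 line was established from a human adenocarcinoma of the lung. The parental A549 group was not transduced and was used at passages P98, P98 and P99 (3 arrays). The OSK-A549-Colony group and the OSK-A549-SN group consisted of A549 cells that had received OCT3/4, SOX2 and KLF4 (OSK) by retroviral transduction, and were used at passages P106, P107 and P106 (3 arrays each). OSK-A549-Colony cells were the cells of the dome-shaped colonies that resisted brief trypsin treatment, and the OSK-A549-SN cells were the spindle-shaped cells around the colonies that detached first. According to the methods, the RNAs came from 3 independent transductions, and the spindle-shaped cells were the ones that came off the dishes on which the colonies remained. Colony and SN arrays with the same number share a passage and may share an experiment, which the labels do not state, so the arrays of the transduced groups may not be independent of each other. No cells that had received a control vector were among these arrays, so transduction, the higher passage number and the picking of colonies cannot be told apart in a comparison with the parental cells. As RNA was taken from bulk cultures, a lower level in every cell and a smaller share of expressing cells cannot be told apart either.

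HOX proteins bind DNA through the homeodomain and give cells their position along the head-to-tail axis of the embryo. The order of the genes along a cluster matches the order in which they are switched on in time and in space, from the anterior genes with low numbers to the posterior genes with high numbers. Genes with the same number in different clusters are paralogs. Adult cells, and the cancer cells derived from them, often keep the HOX pattern of their tissue of origin. Polycomb proteins keep silent HOX genes closed, trithorax (MLL) proteins keep active ones open, and the TALE proteins of the PBX, MEIS and PKNOX families bind DNA together with HOX proteins.

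The starts of 4 genes are shown first, because they belong to genes that were detected and genes that were rarely or never detected within the same cluster. HOXC4 and HOXC5 share a single RefSeq start, yet the probe for HOXC4 was detected on 9 arrays and that for HOXC5 on 0. HOXD8 was the only HOXD gene detected on 9 arrays, while HOXD4 was detected on 0 arrays and HOXD10 on 2. The windows were taken from RefSeq (GRCh38.p14) and run from 250 bases before to 50 bases after the start, 5′ to 3′, with every CG pair in capitals. All of them lie on the plus strand, at chr12:54016638-54016937 (HOXC4 and HOXC5), chr2:176129455-176129754 (HOXD8), chr2:176151300-176151599 (HOXD4) and chr2:176116528-176116827 (HOXD10).
HOXC4: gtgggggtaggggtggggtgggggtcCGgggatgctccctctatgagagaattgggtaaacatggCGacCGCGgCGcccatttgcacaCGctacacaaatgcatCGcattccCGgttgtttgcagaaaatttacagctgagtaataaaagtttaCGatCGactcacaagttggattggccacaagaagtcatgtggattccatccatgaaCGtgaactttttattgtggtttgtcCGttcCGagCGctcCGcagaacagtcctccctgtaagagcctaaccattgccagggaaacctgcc
HOXD8: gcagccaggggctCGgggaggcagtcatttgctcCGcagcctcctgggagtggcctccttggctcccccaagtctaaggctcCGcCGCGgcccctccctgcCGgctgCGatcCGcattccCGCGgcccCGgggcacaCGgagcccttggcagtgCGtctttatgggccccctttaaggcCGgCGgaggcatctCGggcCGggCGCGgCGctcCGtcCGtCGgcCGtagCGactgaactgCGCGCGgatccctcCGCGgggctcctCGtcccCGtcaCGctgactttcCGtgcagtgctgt
HOXD4: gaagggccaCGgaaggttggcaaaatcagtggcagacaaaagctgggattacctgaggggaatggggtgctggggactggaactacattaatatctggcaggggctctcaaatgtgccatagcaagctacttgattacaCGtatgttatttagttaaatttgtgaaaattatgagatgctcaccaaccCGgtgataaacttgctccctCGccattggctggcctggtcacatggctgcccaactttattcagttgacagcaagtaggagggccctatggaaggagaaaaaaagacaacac
HOXD10: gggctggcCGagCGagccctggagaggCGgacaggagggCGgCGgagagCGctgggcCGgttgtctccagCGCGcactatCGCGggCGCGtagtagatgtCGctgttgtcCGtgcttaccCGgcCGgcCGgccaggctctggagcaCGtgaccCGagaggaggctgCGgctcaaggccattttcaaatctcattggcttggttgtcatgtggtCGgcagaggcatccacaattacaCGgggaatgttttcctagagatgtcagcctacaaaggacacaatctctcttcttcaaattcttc
The HOXD8 window held 34 CG pairs, more than 84.4% of the 35116 windows in the RefSeq table. The window of HOXD4 held 4, that of HOXD10 held 23 and that of HOXC4 and HOXC5 held 15. A window was found for 20 of the 38 genes, 27 windows in all, 7 of them starts of HOXA3. The window shared by HOXC4 and HOXC5 is counted once for each gene, so that 26 are distinct. The median number of CG pairs was 22 in these HOX windows (22.5 over the distinct ones) and 14 in all windows. It was 22 over the 17 windows of genes detected on 9 arrays and 21.5 over the 8 windows of genes detected on 0 arrays (7 of the 17 are starts of HOXA3, and no test was made). The letters CCAAT, searched on both strands and unable to overlap a CG pair, were found in 18 of the 27 HOX windows (66.7%; 17 of the 26 distinct ones, 65.4%) and in 34.6% of all windows.

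Each level below is the log2 of a probe's processed intensity minus the log2 of the 75th percentile of its array, so that a value of 0 means the 75th percentile. Differences were taken between arrays for the same probe. A probe counted as detected on an array when at least 0.5 of its spots were significantly positive and well above background. Between 25809 and 29317 probes were detected per array, and no probe was saturated. Of the 9 arrays, 8 lay on 1 slide and OSK-A549-SN replicate 3 lay alone on the second slide. The 5 epithelial markers (KRT7, KRT8, KRT18, EPCAM and CDH1) were detected on all 9 arrays. Of 5 lung lineage markers, NAPSA, SFTPC and SFTPD were detected on all 9 arrays, SFTPB on 2, and NKX2-1 on 0. Of 8 fibroblast or mesenchymal markers, VIM, CDH2 and FN1 were detected on all 9 arrays, COL1A1 on 3, and COL1A2, COL3A1, PDGFRB and THY1 on 0.

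The same 24 of the 38 HOX genes were detected on all 3 arrays of each group, a share of 63.2%, against 47.0% of all probes on the array. These shares differ in basis, since the first takes the brightest probe of each gene and the second all 50599 probes, named or not. No gene was detected on all arrays of 1 group and on none of another. In the HOXA cluster 9 of 10 genes were detected on 9 arrays (HOXA2, HOXA3, HOXA4, HOXA5, HOXA6, HOXA7, HOXA9, HOXA10 and HOXA13). In the HOXB cluster 9 of 10 were detected on 9 arrays, with HOXB1 the exception on 0 arrays. HOXB1 is an anterior gene that patterns the hindbrain. The HOXC cluster had 5 of 9 genes on (HOXC4, HOXC6, HOXC8, HOXC9 and HOXC13), and the HOXD cluster 1 of 9, HOXD8.

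By position, the anterior genes (paralog groups 1 to 3) were detected on 9 arrays in 4 of 7 cases, the central genes (4 to 8) in 13 of 15 and the posterior genes (9 to 13) in 7 of 16. Of the 14 genes not detected on 9 arrays, 8 belonged to HOXD, 4 to HOXC (HOXC5, HOXC10, HOXC11 and HOXC12), and the others were HOXB1 and HOXA11. The probes of 10 genes were not well above background on any array: HOXB1, HOXC5, HOXC11, HOXC12, HOXD1, HOXD3, HOXD4, HOXD11, HOXD12 and HOXD13. Their processed intensities stayed between 1.91 and 11.6, whereas those of the 24 detected genes ranged from 13.5 to 5357.

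**Figure D1:**
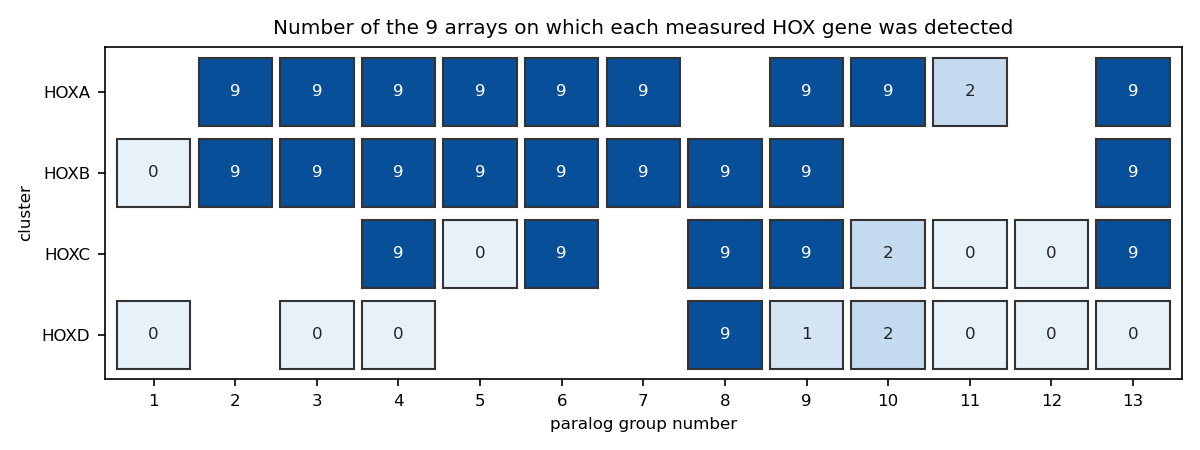
Number of the 9 arrays on which each of the 38 HOX genes was detected, with the clusters in rows and the paralog group number on the x axis; empty places were not examined. The HOXA and HOXB rows are almost filled, with 9 of 10 genes each at 9 arrays, while HOXD8 stands alone in the HOXD row.

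A further 4 genes, all posterior, were detected on 1 or 2 arrays. HOXA11, which acts in the uterus, kidney and limb, was detected in OSK-A549-SN replicates 2 and 3. HOXC10 was detected in parental replicate 2 and OSK-A549-SN replicate 2, HOXD10 in OSK-A549-Colony replicate 1 and OSK-A549-SN replicate 2, and HOXD9 in OSK-A549-SN replicate 3. No fold is given for these 4 genes, since their probes were not well above background on most arrays.

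To ask whether OSK transduction was accompanied by a change of the HOX pattern, the groups were compared in pairs with limma over all probes detected on at least 1 of the 6 arrays. A gene was called when its Benjamini-Hochberg adjusted p was below 0.05 and its fold change was over 2. In OSK-A549-Colony against parental A549 cells, 0 of the 26 HOX genes tested were called, while 3.7% of the 30869 probes tested were. Without the fold threshold, HOXB3 and HOXC13 passed, 2 of 26 or 7.69%, against 9.02% of all probes. At an unadjusted p below 0.05 there were 9 HOX genes (34.6%), against 30.1% of all probes. The HOX shares therefore lay close to those of the whole array.

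The same held for the other pairs. In OSK-A549-SN against parental A549 cells limma called 0 of 28 HOX genes, with 1.55% of 32223 probes called, and 5 HOX genes (17.9%) had an unadjusted p below 0.05 against 21.6% of all probes. Between Colony and SN cells limma called 0 of 28, with 0% of 31748 probes called, and 6 (21.4%) had an unadjusted p below 0.05 against 19.5% of all probes. Without the fold threshold there were still 0 HOX genes in both pairs, where 1.82% and 0% of all probes passed. With the fold threshold but at an unadjusted p below 0.05 there were 0 HOX genes in Colony (6.6% of all probes) and 0 in SN cells (5.83%) against the parental cells, and 1 between the transduced groups, HOXA11 (3.57%, against 2.09%). HOXA11 is also among the 6 above. Its probe was detected on 0 Colony arrays and 2 SN arrays. It thus entered that test through the SN group alone, and its difference could not be measured.

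Across the 3 groups, the limma F test gave an adjusted p below 0.05 for 3 of 28 HOX genes, HOXB3, HOXB5 and HOXC13, or 10.7% against 11.4% of 33087 probes. This count fell to 1 without parental replicate 2 (HOXB5), without parental replicate 3 (HOXA5) or without OSK-A549-SN replicate 1 (HOXC13). It fell to 0 without any 1 of the 3 OSK-A549-Colony arrays or without OSK-A549-SN replicate 2, and leaving out OSK-A549-SN replicate 3 raised it to 4, with HOXA5.

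The sizes of the differences were bounded by the intervals of the fit. Of the 24 genes detected on 9 arrays, 20 had a 95% interval that lay wholly within a 2-fold change in either direction between OSK-A549-Colony and parental A549 cells. The intervals of HOXA4, HOXB3, HOXB5 and HOXB13 reached past 2-fold. Against the OSK-A549-SN cells, 20 OSK-A549-Colony intervals lay within 2-fold, with HOXA9, HOXA10, HOXB2 and HOXB4 outside. For OSK-A549-SN against parental cells 19 did, with HOXA9, HOXB2, HOXB3, HOXB4 and HOXB5 outside. These counts take the 1 probe used per gene. With that probe, the largest estimated change of a gene detected on 9 arrays was 1.65-fold in the Colony and 1.70-fold in the SN cells against the parental cells, both for HOXB3, and 1.52-fold between the transduced groups, for HOXA9. A second probe of HOXA10, detected on 9 arrays, gave 2.06-fold in Colony against parental and 2.17-fold in Colony against SN cells. This probe was dim, with processed intensities from 15.1 to 65.1, against 2282 to 5357 for the first. A second probe of HOXB2 gave 1.79-fold in SN against parental cells.

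**Figure D2:**
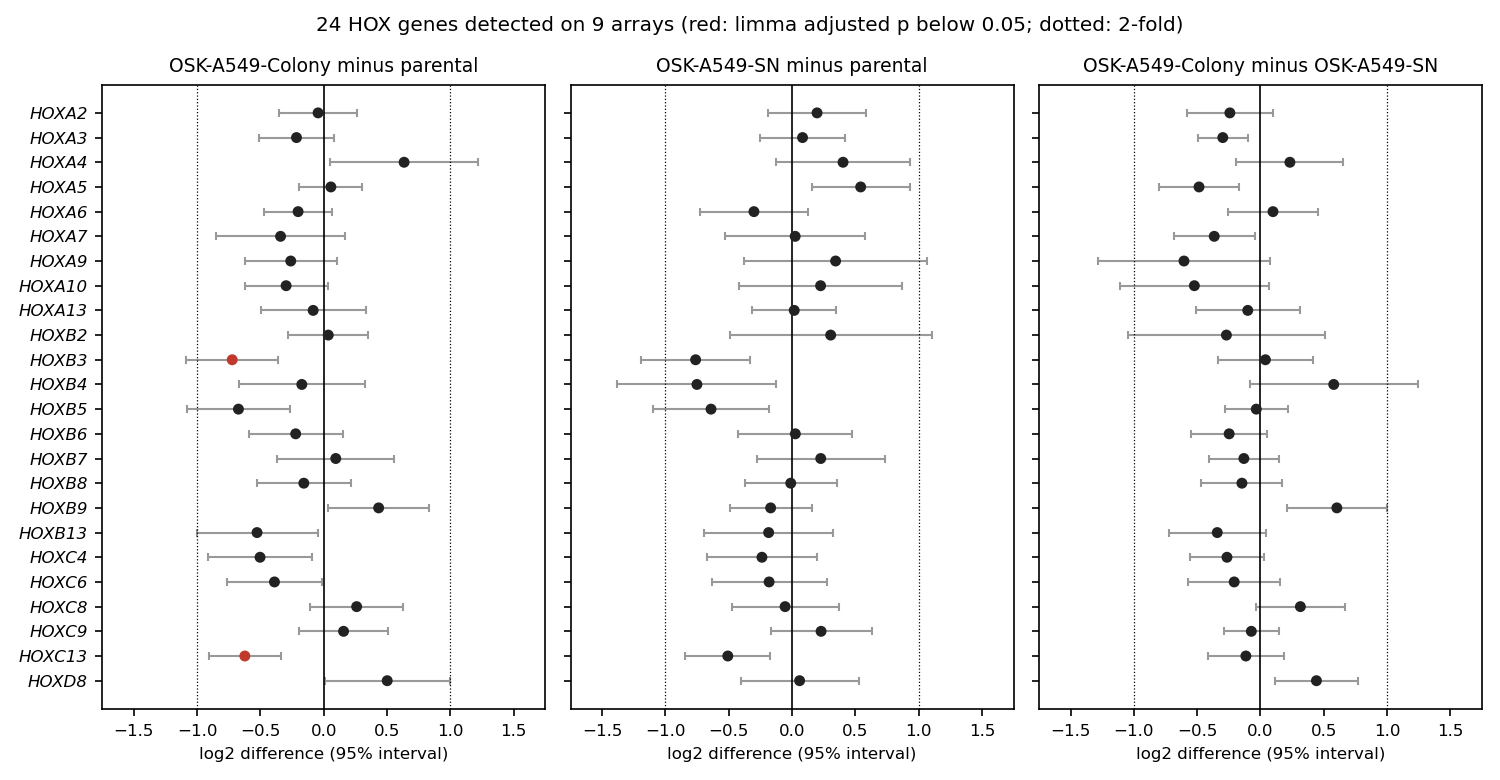
Log2 difference of the 24 HOX genes detected on 9 arrays in the 3 comparisons (points, with 95% intervals from limma on the x axis; the dotted lines mark a 2-fold change). HOXB3 and HOXC13 in the left panel are the points with an adjusted p below 0.05, and every point lies between the dotted lines.

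As a set, the 26 HOX genes tested had a median log2 difference of -0.16 in OSK-A549-Colony against parental cells, where that of all probes tested was -0.030. The medians were 0.025 and 0.077 for OSK-A549-SN against parental cells, and -0.18 and -0.062 for Colony against SN cells. The HOX median for Colony against parental cells was -0.056 with quantile normalization and -0.065 with normexp background correction, and that for Colony against SN cells was -0.13 and -0.078. The medians of all probes under these settings are not given here, and those above belong to the main scaling. Over the 24 genes detected on 9 arrays alone the HOX medians of the main scaling were -0.19, 0.021 and -0.14. The arrays of the groups did not overlap for 12 of 26 HOX genes in OSK-A549-Colony against parental cells (46.2%, against 41.6% of all probes). Of these, 10 were lower in the Colony cells (38.5%, against 20.7% of all probes) and 2 were higher (7.69%, against 20.9%). With the second probe in place of the first where a gene had one, 8 were lower (30.8%) and 3 were higher (11.5%). No test of this imbalance was made. Groups did not overlap for 9 of 28 HOX genes between the transduced groups (background 30.8%) and for 5 of 28 in OSK-A549-SN against parental cells (background 32.1%). The 9 include HOXA11, which was detected on 0 Colony arrays.

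Among the HOXB genes, HOXB3 and HOXB5 had the most negative differences between Colony and parental cells. HOXB3, an anterior gene that acts in the hindbrain and pharyngeal arches, had levels of -1.71, -1.36 and -1.57 in the parental arrays, of -2.41, -2.30 and -2.09 in the Colony arrays and of -2.17, -2.19 and -2.56 in the SN arrays. All 6 transduced arrays lay below all 3 parental arrays, and the transduced groups overlapped. The log2 difference was -0.72 (SE 0.15; limma adjusted p = 0.043) for Colony against parental and -0.76 (SE 0.18; adjusted p = 0.090) for SN against parental cells, which share the parental arrays. With normexp background correction of the median spot signals and an added offset of 50, which draws the log2 differences of dim probes towards 0 by construction, they were -0.30 (adjusted p = 0.088) and -0.33 (adjusted p = 0.14). Over its 16 alternatives the adjusted p of the Colony difference ran from 0.017 to 0.16 and was below 0.05 in 6. HOXB3 overlaps HOXB4 in the RefSeq annotation. There were 8 such pairs with 11 members, among them HOXA3 with HOXA4, HOXA5 and HOXA6, and HOXC4 with HOXC5 and HOXC6.

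HOXB5, which takes part in the branching of the lung and in the development of the enteric nervous system, was measured at 1.53, 0.96 and 1.31 in the parental, 0.54, 0.62 and 0.63 in the Colony and 0.50, 0.62 and 0.77 in the SN arrays. Again no transduced array reached the lowest parental array. The log2 difference was -0.67 (SE 0.16; limma adjusted p = 0.061) in Colony and -0.64 (SE 0.19; adjusted p = 0.13) in SN cells. HOXB4, a gene known for expanding blood stem cells, was dim, with levels of -2.91, -3.03 and -2.60 in the parental, -3.36, -2.90 and -2.80 in the Colony and -4.10, -3.38 and -3.32 in the SN arrays. The SN arrays lay below all parental arrays, with a log2 difference of -0.75 (SE 0.26; limma adjusted p = 0.17), and the Colony arrays overlapped both groups. Under normexp this difference was -0.22, and the difference between Colony and SN cells went from 0.58 (adjusted p = 0.30) to 0.16, or to 0.33 without OSK-A549-SN replicate 1.

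HOXB9 and HOXB13, the posterior HOXB genes, had differences of opposite sign in the Colony cells. HOXB9 stood at 1.10, 1.26 and 1.10 in the parental, 1.35, 1.55 and 1.87 in the Colony and 0.92, 1.12 and 0.93 in the SN arrays. The Colony arrays lay above all arrays of both other groups. The log2 difference was 0.43 (SE 0.16; limma adjusted p = 0.14) against parental and 0.60 (SE 0.16; adjusted p = 0.16) against SN cells, neither past the threshold. HOXB13, a gene of the prostate and hindgut, stood at 0.20, 0.49 and 0.81 in the parental, -0.20, 0.17 and -0.05 in the Colony and 0.16, 0.56 and 0.23 in the SN arrays. The Colony arrays lay just below the parental ones, with a log2 difference of -0.53 (SE 0.19; limma adjusted p = 0.14), and overlapped the SN arrays (-0.34, adjusted p = 0.30; -0.22 without OSK-A549-SN replicate 2). The other HOXB genes detected on 9 arrays, HOXB2, HOXB6, HOXB7 and HOXB8, had log2 differences between -0.27 and 0.30 in the 3 comparisons.

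In the HOXA cluster, HOXA5 was the gene in which the SN cells stood apart. HOXA5 is needed for lung and airway development. Its levels were 0.20, 0.21 and 0.37 in the parental, 0.36, 0.31 and 0.27 in the Colony and 0.99, 0.84 and 0.57 in the SN arrays. All SN arrays lay above all other arrays, and the Colony and parental arrays overlapped. The log2 difference was 0.54 (SE 0.16; limma adjusted p = 0.13) for SN against parental and -0.49 (SE 0.13; adjusted p = 0.16) for Colony against SN cells. The limma F test over the 3 groups gave an adjusted p of 0.051.

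HOXA4 was dim, and its Colony mean lay above the parental mean without passing the test. It was measured at -3.44, -3.37 and -2.79 in the parental, -2.85, -2.55 and -2.29 in the Colony and -2.94, -2.81 and -2.64 in the SN arrays. Parental replicate 3 lay within the range of the Colony and SN arrays, so the groups overlapped. The log2 difference was 0.64 (SE 0.24; limma adjusted p = 0.14) in Colony and 0.40 (SE 0.22; adjusted p = 0.34) in SN cells, and under normexp it was 0.23 and 0.16. Without parental replicate 3 the SN difference was 0.61. HOXA7 had levels of 0.91, 1.11 and 1.62 in the parental, 0.76, 0.91 and 0.95 in the Colony and 1.04, 1.42 and 1.25 in the SN arrays, and the Colony arrays lay below the SN ones (log2 difference -0.37, SE 0.13; limma adjusted p = 0.22).

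HOXA9 and HOXA10, posterior genes known from blood stem cells and leukaemia and from the uterus, were low in the Colony arrays by the first probe of each, not by the second, and their SN values rested on a single array. HOXA9 stood at 1.00, 0.96 and 1.37 in the parental, 0.76, 0.95 and 0.84 in the Colony and 1.02, 1.28 and 2.05 in the SN arrays. HOXA10 stood at 3.42, 3.46 and 3.78 in the parental, 3.19, 3.33 and 3.24 in the Colony and 3.50, 3.52 and 4.31 in the SN arrays. For both genes every Colony array lay below every parental and SN array, and OSK-A549-SN replicate 3 was the highest of all. The log2 differences between Colony and SN cells were -0.60 for HOXA9 and -0.52 for HOXA10 (SE 0.27 and 0.24; limma adjusted p = 0.30 for both), and without that array they were -0.31 and -0.26. For HOXA9 the difference between SN and parental cells was 0.34, and 0.045 without that array. The remaining HOXA genes detected on 9 arrays, HOXA2, HOXA3, HOXA6 and HOXA13, had log2 differences between -0.30 and 0.20.

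OSK-A549-SN replicate 3 also stood out for HOXB2, an anterior gene of the hindbrain. HOXB2 had levels of -0.60, -0.80 and -0.44 in the parental, -0.64, -0.50 and -0.59 in the Colony and -0.71, -0.62 and 0.41 in the SN arrays. The difference between SN and parental cells was 0.30 (SE 0.33; limma adjusted p = 0.61) and turned to -0.053 without this array. Replicate 3 exceeded the mean of the other SN arrays by more than 0.7 on the log2 scale for these 3 of the 24 HOX genes (12.5%), and for 6.75% of the 23762 probes detected on 9 arrays. Of 12 noncoding and other transcripts from the clusters or genes at their borders detected on 9 arrays, 3 (25%) did so as well, EVX1 by 1.18, HOTAIR by 1.10 and PRAC2 by 0.72, and the lowest of the 12, HOXD-AS2, lay below the other SN arrays by a log2 difference of -0.33. As it was the only array on its slide, the slide and the sample cannot be told apart.

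A second probe was present for HOXA9, HOXA10, HOXB2 and HOXD9, and the order of its groups did not follow that of the first in HOXA9, HOXA10 and HOXB2. The second probe of HOXA10, dim but detected on 9 arrays, gave -3.38, -3.52 and -2.88 in the parental, -2.65, -2.10 and -1.89 in the Colony and -3.16, -3.84 and -2.995 in the SN arrays. Here the Colony arrays were above all others, where the first probe had them below all others. The log2 difference of the second probe was 1.04 (SE 0.26; limma adjusted p = 0.065) against parental and 1.12 (SE 0.30; adjusted p = 0.16) against SN cells, whereas that of the first probe was -0.30 and -0.52.

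The second probe of HOXB2 stood at -0.56, -0.32 and -0.19 in the parental, -0.76, -0.32 and -0.19 in the Colony and -1.49, -1.01 and -1.09 in the SN arrays. It put the SN arrays below all others, with a log2 difference of -0.84 (SE 0.19; limma adjusted p = 0.088) against the parental cells, and replicate 3 did not stand apart. The first HOXB2 probe had been taken for its higher mean over the 9 arrays (-0.50 against -0.66), which rested on OSK-A549-SN replicate 3, since over the other 8 arrays the means were -0.611 and -0.606. For HOXA9 the second probe was dim (processed intensities 10.2 to 35.1) and detected on 8 arrays. It gave log2 differences of 0.43 for Colony against parental and 0.27 for Colony against SN cells (limma adjusted p = 0.56 for both). These were opposite in sign to the first probe (-0.26 and -0.60), and the groups of the second probe overlapped in each comparison. OSK-A549-SN replicate 3 exceeded the mean of the other SN arrays by 0.71 in the second HOXA9 probe and by 0.51 in the second HOXA10 probe. In the first probes it did so by 0.90 and 0.80, and in the second HOXB2 probe by 0.16. The second HOXD9 probe was detected on 0 arrays. The sign for HOXA9, HOXA10 and HOXB2 thus depended on the probe in at least 1 comparison each. Where each probe lies in its transcript was not analysed here.

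**Figure D3:**
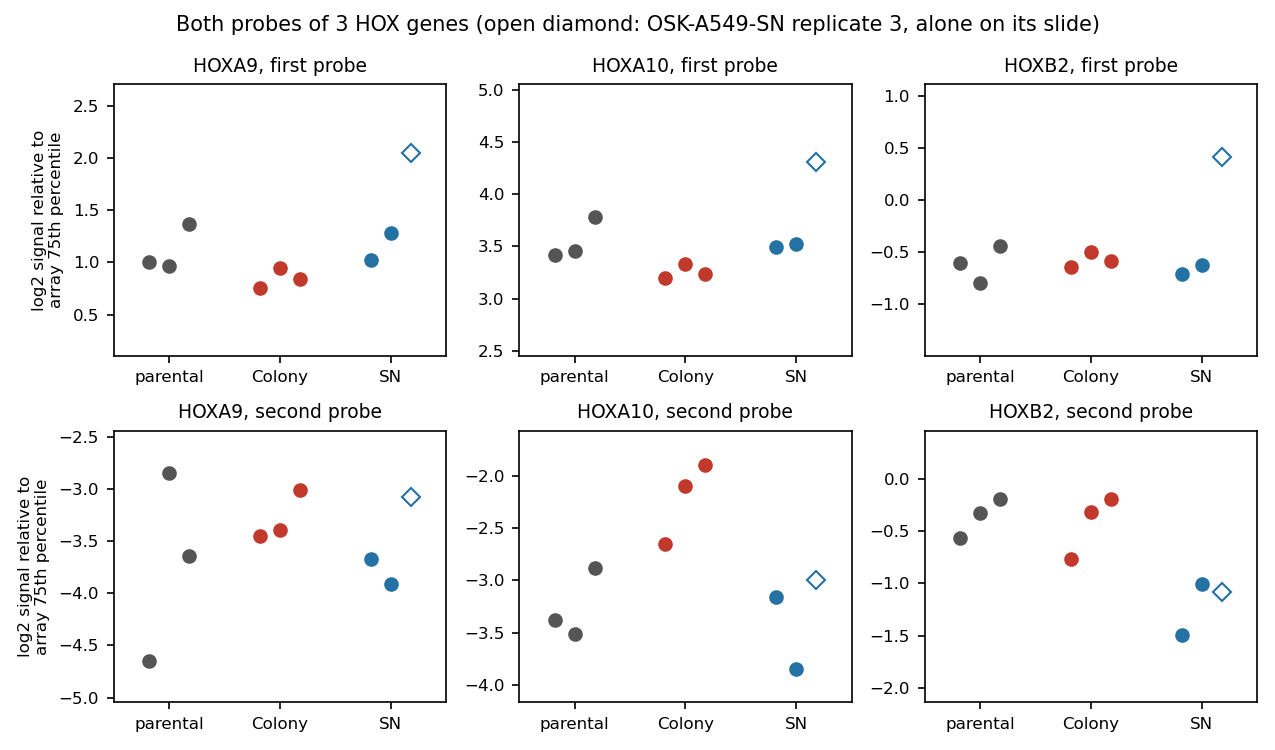
Both probes of HOXA9, HOXA10 and HOXB2 on each array (y axis, log2 intensity relative to the 75th percentile of the array); the open diamond is OSK-A549-SN replicate 3. The top row holds the probe used for the gene and the bottom row the second probe. In the first probes the diamond lies above all other arrays, and in the second probes the groups are ordered differently.

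In the HOXC cluster, HOXC13, which controls hair keratin genes, was the clearest case. Its levels were -0.16, -0.02 and -0.02 in the parental, -0.55, -0.81 and -0.70 in the Colony and -0.41, -0.61 and -0.70 in the SN arrays. All 6 transduced arrays lay below all parental arrays. The log2 difference was -0.62 (SE 0.11; limma adjusted p = 0.036) in Colony and -0.51 (SE 0.14; adjusted p = 0.12) in SN cells. Over 16 alternatives the adjusted p of the Colony difference ran from 0.014 to 0.14 and was below 0.05 in 9.

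HOXC4, a gene that acts in lymphocytes, stood at 1.51, 1.89 and 2.00 in the parental, 1.15, 1.38 and 1.37 in the Colony and 1.41, 1.68 and 1.60 in the SN arrays. The Colony arrays lay below all others, with a log2 difference of -0.50 (SE 0.16; limma adjusted p = 0.11) against the parental cells. HOXC6, HOXC8 and HOXC9 had log2 differences between -0.39 and 0.32. HOXD8, whose CG-rich start is printed above, was the HOXD gene with a measurable level: -1.54, -1.08 and -0.96 in the parental, -0.88, -0.72 and -0.48 in the Colony and -1.03, -1.22 and -1.15 in the SN arrays. The Colony arrays were highest throughout, with log2 differences of 0.50 (SE 0.20; limma adjusted p = 0.16) against parental and 0.44 (SE 0.13; adjusted p = 0.18) against SN cells. The first was 0.33 without parental replicate 1, and under normexp they were 0.33 and 0.28.

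The spread between replicate arrays was set beside that of all probes. The median SD of the 24 HOX genes was 0.21 in the parental, 0.13 in the Colony and 0.19 in the SN group, against 0.21, 0.091 and 0.16 over all probes detected on 9 arrays.

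The genes that work with the HOX clusters were examined as lists. Of 20 noncoding and other transcripts from the clusters, 11 had a probe and 7 were detected on 9 arrays, among them HOTAIR and HOTAIRM1, the latter transcribed next to the start of the HOXA cluster. None was called in any comparison, where 3.7% (Colony against parental), 1.55% (SN against parental) and 0% (Colony against SN) of all probes were, so that 0 calls in lists of this length lie near the share of the array. HOXD-AS2, an antisense RNA in the HOXD cluster, stood at 0.70, 0.65 and 0.91 in the parental, 0.22, -0.02 and -0.11 in the Colony and 1.00, 1.04 and 0.69 in the SN arrays. The Colony arrays lay below all others (log2 difference -0.73, limma adjusted p = 0.037, against the parental cells). HOTAIRM1 had a log2 difference of -0.45 between Colony and parental cells (limma adjusted p = 0.046), below the 2-fold threshold.

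Of the TALE cofactors, 8 of 9 listed genes had a probe, all detected on 9 arrays, and 0 were called in any comparison, against the same shares. PBX4 had a log2 difference of -0.68 (limma adjusted p = 0.046) in Colony against parental cells. The median over the 8 genes was -0.29 for Colony against parental cells, where that of all probes was -0.030. All 22 measured chromatin regulators of HOX genes, Polycomb and MLL components among them, were tested, and 0 were called, where 3.7% of that number is less than 1 gene. PHC2, a Polycomb subunit, had a log2 difference of 0.63 (limma adjusted p = 0.042) in Colony against parental cells. Other Polycomb genes differed in sign, with BMI1 at 0.73 (adjusted p = 0.095), CBX7 at -0.74 (0.070) and PHC1 at -0.49 (0.11). The median over the 22 genes was 0.094 in this comparison, where that of all probes was -0.030. The genes at the borders of the clusters (7 tested) and the ParaHox and CDX factors (3 tested) had 0 calls as well.

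Retinoic acid switches on HOX genes in the embryo. Of 15 listed genes of this pathway 14 were tested, and 2 were called in Colony (14.3%, against 3.7% of all probes) and 1 in SN cells (7.14%, against 1.55%) against the parental cells. CRABP1, which binds retinoic acid in the cytoplasm, stood at 1.53, 1.73 and 1.72 in the parental, 0.12, 0.63 and 0.53 in the Colony and -0.45, -0.10 and -0.25 in the SN arrays. Both transduced groups lay below the parental arrays, and CRABP1 was called lower in Colony (-1.24, SE 0.16; limma adjusted p = 0.023) and in SN cells (-1.93, SE 0.15; adjusted p = 0.021). ALDH1A3, an enzyme that makes retinoic acid, was called higher in the Colony cells (1.10, SE 0.23; adjusted p = 0.045). The call of ALDH1A3 was lost in 9 of 17 alternatives. That of CRABP1 was lost in 6 of 17 for Colony and 6 of 18 for SN cells. The block for replicate number was among these for both genes. With fewer arrays calls were lost although the differences stayed large. The ALDH1A3 call was lost on leaving out any 1 of the 6 arrays (limma adjusted p = 0.063 to 0.13), with differences of 0.85 to 1.23. The CRABP1 call was lost without parental replicate 2 or any 1 Colony array (0.062 to 0.10) for Colony cells, and without parental replicate 1 or 2 or SN replicate 1 or 2 (0.052 to 0.13) for SN cells, with differences from -1.34 to -1.08 and from -2.01 to -1.61 over all alternatives. The difference of ALDH1A3 in SN cells was 0.55 (limma adjusted p = 0.27). The median over the 14 genes was 0.0017 in Colony and 0.18 in SN cells against the parental cells.

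**Figure D4:**
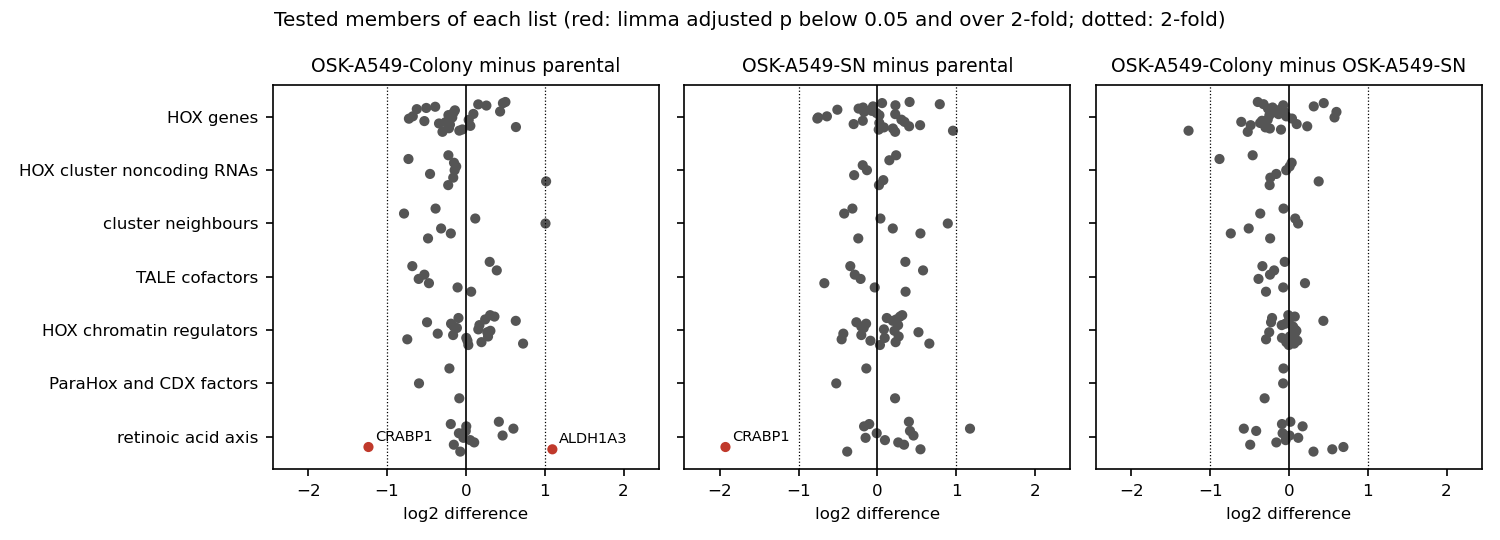
Log2 differences of the tested members of the HOX genes and of 6 lists (noncoding RNAs, cluster neighbours, TALE cofactors, chromatin regulators, ParaHox and CDX factors, retinoic acid pathway; y axis) in the 3 comparisons (dots; x axis, log2 difference; dotted lines mark a 2-fold change; red marks a limma adjusted p below 0.05 with more than a 2-fold change). Among the lists drawn here, CRABP1 and ALDH1A3 are the called genes.

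Some markers moved along with the groups. Of 6 immediate early genes, which respond to the handling of cells, JUN and EGR1 were called higher in Colony against parental cells (33.3%, against 3.7% of all probes; log2 difference 1.68 and 1.28; limma adjusted p = 0.015 and 0.028), calls that were lost without parental replicate 2 or any 1 Colony array, with differences of 1.57 to 1.80 and 1.13 to 1.40 over the arrays left out. Under normexp the difference of EGR1 was 0.72, below the 2-fold threshold. Over 17 alternatives JUN was not called in 5 and EGR1 in 8, the block for replicate number among them for both. The summed level of the 6 genes, as intensity relative to the 75th percentile and mostly that of IER2, ranged from 98.6 to 105 in the Colony, from 65.2 to 86.3 in the parental and from 70.2 to 92.2 in the SN arrays. All 6 proliferation genes were lower in the Colony than in the SN arrays, without overlap (17.3% of all probes were) and with 0 calls, and their summed level was 58.4 to 61.2 in the Colony, 74.5 to 80.8 in the SN and 49.3 to 76.8 in the parental arrays. The 5 epithelial markers summed to between 1468 and 1547 in the Colony, 1494 and 1835 in the SN and 1578 and 1776 in the parental arrays, sums made up mostly of keratin signal. CDH1 (E-cadherin) had a log2 difference of -0.996 in Colony against parental cells (limma adjusted p = 0.032), just under the 2-fold threshold, and 3 of the 5 were lower in the Colony arrays without overlap, against 20.7% of all probes. The sums of the 8 mesenchymal markers ran from 218 to 233, 226 to 249 and 151 to 211 in the Colony, SN and parental arrays and were almost wholly VIM signal. FN1 (fibronectin) had a log2 difference of the opposite sign in SN against parental cells (-1.33, limma adjusted p = 0.070), with the SN arrays below all parental arrays. The part of these shifts in the HOX values was not tested.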

How the data were processed

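Total RNA of 9 samples was hybridised to Agilent single-colour human arrays, 1 sample per array. The authors deposited spot intensity values from Feature Extraction 11.5.1.1, background-subtracted and not scaled between arrays, with its detection and outlier flags (values of 0 or 1, another kind of column in the deposited files). They also deposited a log2 table of the same arrays, which was used as an alternative; how it was made is not given in the sources used here, and within 0.001 it equalled the log2 processed intensity up to a shift per array. Control spots and outlier spots were left out, spots of a probe were averaged, and the 75th percentile of each array (217.5 to 270.6 intensity units) was subtracted on the log2 scale. Probes were named through RefSeq accessions (30275 of 50599). The number of arrays limits the precision.

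Pairs of groups were compared in R 4.3.3 with limma 3.58.1 (lmFit and eBayes, without a block), over probes detected on at least 1 of the arrays compared, with Benjamini-Hochberg adjustment over all of them. The steps were tested on simulated data. Values on each array were given for HOX genes that were called, for the 8 HOX genes with the largest log2 differences in each comparison where the brighter group had the probe detected throughout, and for any HOX gene detected throughout 1 group and nowhere in another. These rules named 14 HOX genes, all of them by size. Alternatives were normexp (median spot signals, offset 50), quantile normalization, other detection filters, blocks for slide and replicate number, 1 fit over 9 arrays, no moderation, other thresholds, the deposited log2 table, the mean of all probes and leaving out each array. The members and lists were chosen with earlier results of these data known.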

Additional observations from a re-analysis of the deposited data

How the results depend on the processing

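The count of called HOX genes was 0 in each comparison under every alternative run, leave-one-out fits included (0 to 0), except that it was 2 for OSK-A549-Colony against parental cells without a fold threshold (HOXB3 and HOXC13, log2 differences -0.72 and -0.62) and 1 between Colony and SN cells at an unadjusted p (HOXA11, not well above background on any Colony array). Calls over all probes were 1581, 9 and 1085 with all 9 arrays in 1 fit and 336, 0 and 5 without moderation, for the pairs Colony and parental, Colony and SN, and SN and parental, against 1143, 0 and 498; with the slide as a block the last was 187. The F test count of 3, whose alternatives were chosen after seeing the data, became 0 without the detection filter, 8 at an unadjusted p and 0 to 4 when leaving out each array. The HOX medians moved by less than the spread between arrays, but when leaving out each array that for SN against parental cells ran from -0.034 to 0.11, and that for Colony against parental cells (-0.16) from -0.26, without parental replicate 2, to -0.12; the latter was -0.065 under normexp and -0.056 with quantile normalization. Among the 14 named genes, HOXA10 turned to 0.30 in Colony against SN cells with the mean of all its probes (HOXA9 went from -0.60 to -0.17), and HOXB2 in SN against parental cells turned to -0.27 with the mean of its probes, to -0.053 with the slide as a block and to -0.053 without OSK-A549-SN replicate 3 (-0.053 to 0.51 over the arrays left out), since these settings take in the second probe or leave the array out. Normexp was run on median spot signals with an offset of 50, which shrinks the differences of dim genes by construction. Depth of signal limits the 14 genes that were not detected on 9 arrays, whose differences could not be measured.

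The replicate numbers were taken as names. Samples of the transduced groups with the same number had correlated deviations of 0.24, 0.07 and 0.14, each of these samples correlating best with its own number among the transduced arrays, but the pairs with parental arrays did not. With the replicate number as a block, 0 HOX genes were called in each comparison, and calls over all probes became 0, 0 and 0, so that CRABP1, ALDH1A3, JUN and EGR1 were not called either (adjusted p = 0.12 to 0.17); the adjusted p of HOXC13 in Colony against parental cells was 0.14, and between Colony and SN cells that of HOXB4 was 0.23 and that of HOXB13 0.25.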
